A study of Rattus norvegicus with 8 samples.

Results

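The liver remaining after partial hepatectomy (PH) was compared with the liver of 4-week-old rats across all genes. The comparison rests on 4 of the 8 arrays of the study, the 2 arrays titled as regenerating liver and the 2 arrays titled as 4-week liver. All animals were healthy female Wistar rats, an outbred laboratory strain, and the labels name no transgene or drug. In the operated group, the lateral lobes, about 2/3 of the liver mass, had been removed and the remaining lobes were collected 8 h after surgery. The 4-week livers came from rats that the labels describe as developing. The remaining arrays, 2 from rats aged 2 weeks and 2 from rats aged 12 weeks, entered the estimate of the spread and are given as levels beside the comparison. The sources used here do not give the age of the operated rats or the hour of collection. Sham-operated rats were not analysed here. Surgery, age and hour of collection therefore cannot be told apart in this comparison. Array titles speak of biological replicates and the design of duplicates, and the labels do not settle whether each array is a separate animal. The p-values cover only the spread between arrays, which may be technical.

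After part of the liver is lost, the remaining hepatocytes leave rest and divide until the mass is restored. In the first hours interleukin-6 and related cytokines act through a shared receptor chain and the transcription factor STAT3. Growth factor receptors are also engaged before DNA synthesis begins. The liver of a young rat is growing as well, still changes its detoxifying enzymes towards the adult pattern, and loses the last blood-forming cells and fetal transcripts. In rats several liver enzymes also become sex-dependent around puberty under the control of the growth hormone rhythm.

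Values are log2 levels from robust multi-array averaging (RMA), in which 1 unit is a 2-fold change, and a difference is the PH mean minus the 4-week mean, so a positive value is higher after PH. The 2 PH arrays correlated at 0.980 over 14511 genes and the 2 4-week arrays at 0.975, and 432 and 621 genes lay at least 2-fold apart within these pairs. The 12-week pair varied more, with a correlation of 0.952 and 1838 such genes. A set of 1283 olfactory, vomeronasal, taste and trace-amine receptor genes, most of them at low signal here, served as a guide to the lowest signals. Their median level was 4.66 and 4.17 on the PH arrays and 4.06 and 4.02 at 4 weeks. It was 4.06 and 4.07 at 2 weeks and 4.74 and 3.92 at 12 weeks. The lowest signals were thus raised on PH replicate 1 and on 12-week replicate 1. The tissue label was borne out by the hepatocyte markers. Their summed level was 16.73 and 16.68 on the PH arrays against 16.74 and 16.63 at 4 weeks, and Alb, the albumin gene, read 14.17 and 14.10 against 14.19 and 14.18.

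After PH 17 genes were higher and 28 lower than at 4 weeks. The higher ones were led by Cyp3a9, A1bg and Rup2, all 3 also high at 12 weeks, followed by Dab1 and Scube1, and included the cytokine receptor chains Osmr and Lifr and their feedback inhibitor Socs3. The lower ones were led by Cyp3a2, Alox15 and the imprinted RNA H19, and included Nr0b2, Akr1d1 and Abcc3 of bile acid handling and the cell cycle genes Cdkn3 and Ccnb1. These 45 genes were 0.310% of the 14511 tested, 0.117% higher and 0.193% lower, at an adjusted p under 0.05 in a limma model of the 4 groups (Benjamini-Hochberg over all genes). The call thus reached only large differences, from 1.89 upward among the higher and from -1.69 downward among the lower, while 685 genes differed at least 2-fold and 1473 had an unadjusted p under 0.05. Over all genes the median difference was -0.01, and 49.2% lay above 0. The counts in each list below are to be read beside these shares of all genes. When each of the 4 compared arrays was left out in turn, the medians of 9 of the 36 gene lists stayed within 1.5 times their value. These were the lists of mitosis, lipogenesis, ribosome biogenesis, heat shock, cholesterol synthesis, bile acids, P450 and phase II enzymes, erythroid markers and cholangiocyte markers, and medians near 0 in other lists carry no direction.

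The number of calls depended on the arrays in the fit. Leaving out PH replicate 1 or replicate 2 left 6 or 7 calls, leaving out 4-week replicate 1 or replicate 2 left 6 or 10, and leaving out either or both of the 12-week arrays gave 132. All 45 genes kept their direction in each of the 21 alternatives in which they were tested, and Cyp3a2, Cyp3a9, A1bg and Alox15 also kept an adjusted p under 0.05 in all of them, while the other 41 lost it without at least 1 of the PH or 4-week arrays.

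**Figure D1:**
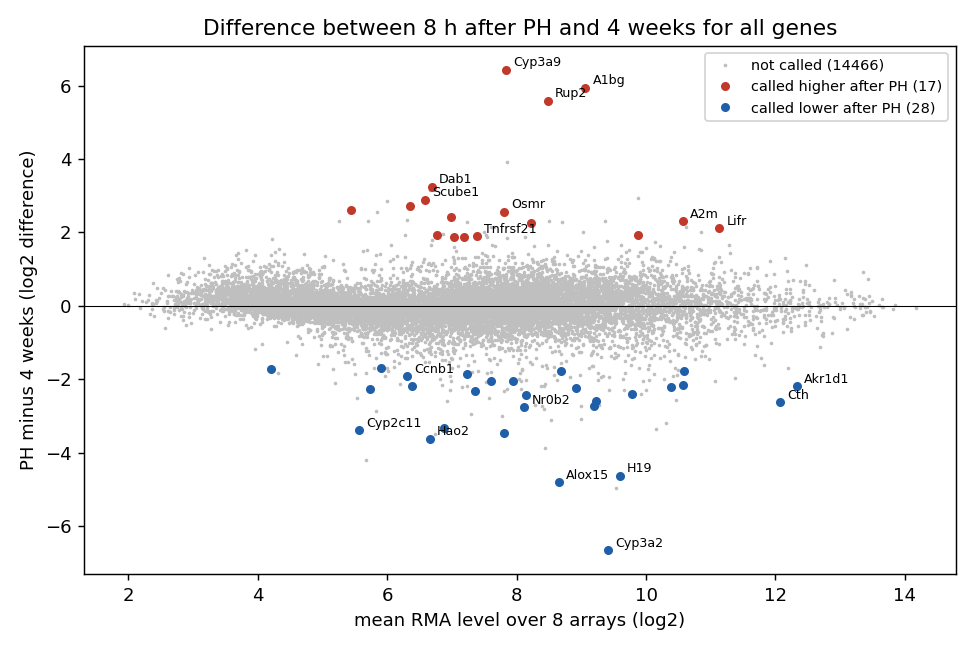
Log2 difference between PH and 4 weeks (vertical axis) against the mean log2 level over the 8 arrays (horizontal axis) for the 14511 genes, with the 17 genes called higher and the 28 called lower coloured. The called genes lie at 1.89 or above and at -1.69 or below, and most genes lie close to the all-gene median of -0.01.

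None of the 45 genes had overlapping PH and 4-week arrays, which holds for 44.1% of all genes and is therefore common with 2 arrays a group. The other ages divided the 45 genes further. For 26 of them both PH arrays lay outside all 6 other arrays, 12 above and 14 below. Over all genes the share is 10.3% (5.18% above and 5.15% below), but the call already sets the PH arrays apart from the 4-week arrays, and among all genes without overlap between these groups the share is 23.4%. For 14 of them, 4 higher and 10 lower, the PH range overlapped the 12-week range. The remaining 5 met neither description. The 12-week mean was closer to the PH mean than to the 4-week mean for 5 of the 17 higher genes and for 16 of the 28 lower genes. These counts describe levels and were not tested.

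**Figure D2:**
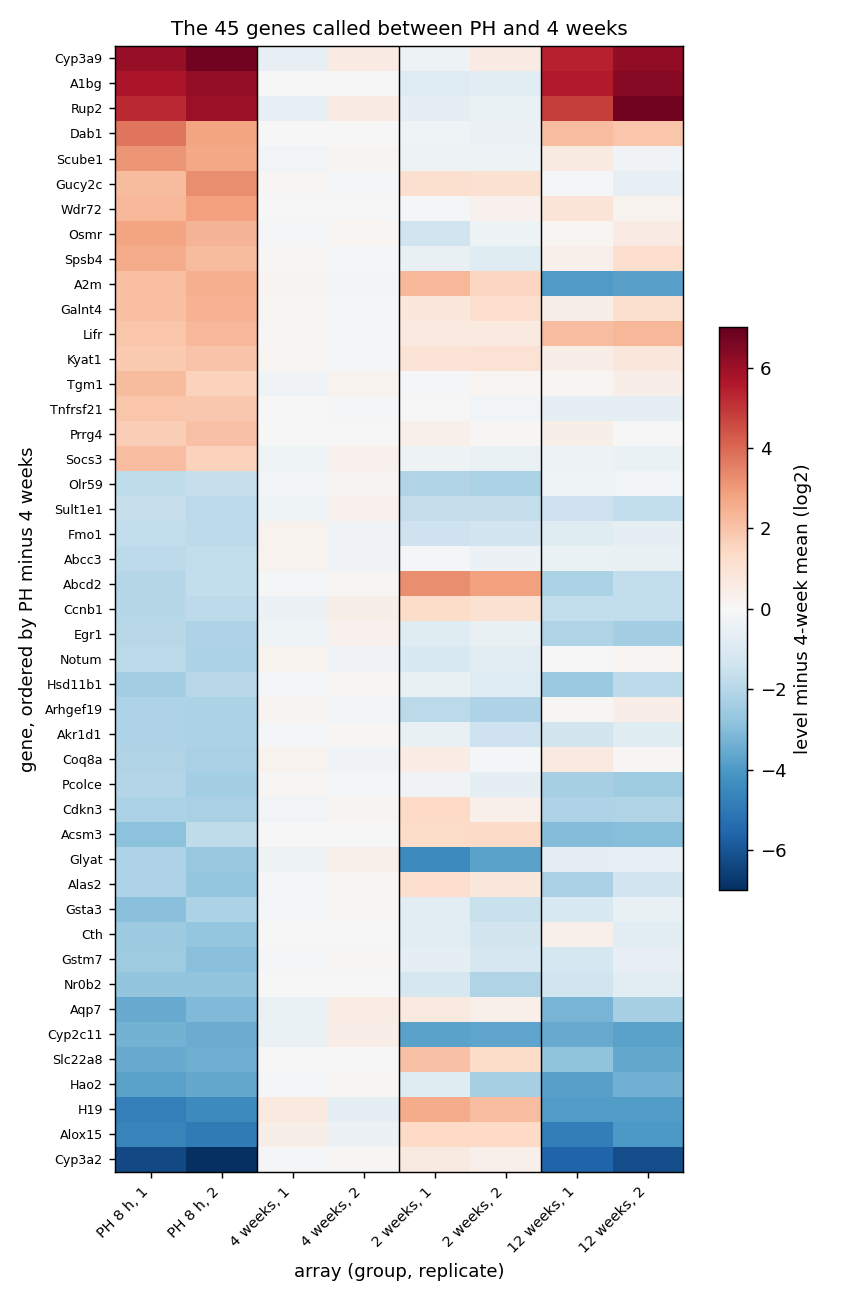
Log2 level of the 45 called genes on each of the 8 arrays, shown relative to the mean of the 2 4-week arrays, with columns for the PH, 4-week, 2-week and 12-week arrays. The 12-week columns share the PH colour for genes such as Cyp3a9, A1bg, Cyp3a2 and Alox15, and the PH columns stand alone for genes such as Tnfrsf21 and Socs3. For Nr0b2 the 2-week and 12-week columns lie between those of PH and 4 weeks.

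The 3 largest increases were in genes that were low in both young groups and high at 12 weeks. Cyp3a9, a cytochrome P450 that is more abundant in adult female than male rat liver, read 10.87 and 11.51 after PH and 4.17 and 5.35 at 4 weeks. The difference was 6.43 ± 0.49 (SE), or 86.1-fold, with an adjusted p of 0.002878. The 4-week values are low signals, with receptor-gene medians of 4.06 and 4.02 on those arrays, so the fold is uncertain. The 2-week arrays read 4.40 and 5.32 and the 12-week arrays 10.12 and 10.95, so the low levels were those of both young groups.

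A1bg, a plasma glycoprotein gene whose liver level follows the growth hormone rhythm, read 12.02 and 12.42 after PH against 6.29 and 6.27 at 4 weeks (5.94 ± 0.30, adjusted p 2.1e-04). Its 12-week arrays, at 11.85 and 12.66, enclosed both PH values. Rup2, a urinary protein gene, read 10.99 and 11.75 against 5.20 and 6.35 (5.59 ± 0.61, adjusted p 0.01675) and 10.64 and 12.52 at 12 weeks. In both genes the 2 young groups were low and the 12-week and PH groups high.

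Cyp3a2, a P450 that is abundant in young rats of both sexes and later kept mainly by males, was the opposite case. It read 6.11 and 5.44 after PH and 12.36 and 12.51 at 4 weeks, a fall of 101-fold (-6.66 ± 0.31, adjusted p 1.9e-04). The 2-week level was 13.06 and 12.79 and the 12-week level 6.80 and 6.22, so both PH arrays were below every other array but close to the 12-week pair. Cyp3a family members have near-identical stretches, and sharing of signal within the family was not tested. Cyp3a2 and Cyp3a9 ran in opposite directions. Cyp3a9 read 4.17 and 5.35 on the 4-week arrays, where Cyp3a2 was high, and 10.87 and 11.51 after PH, where Cyp3a2 was low.

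Other lower genes shared this order of the ages. Alox15, an arachidonate lipoxygenase, read 5.95 and 5.66 after PH, 11.01 and 10.22 at 4 weeks and 5.77 and 6.60 at 12 weeks (-4.81 ± 0.35, adjusted p 0.002779). H19, an imprinted noncoding RNA that is abundant in fetal liver, read 6.35 and 6.65 against 11.80 and 10.45 (-4.63 ± 0.41, adjusted p 0.007447), and its other probe set differed by -5.71. H19 was higher still at 2 weeks, at 13.75 and 13.30, and was 7.23 and 7.21 at 12 weeks.

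Slc22a8, an organic anion transporter, read 5.55 and 5.64 after PH against 9.08 and 9.05 at 4 weeks (-3.47 ± 0.33, adjusted p 0.008961). Aqp7, a glycerol and water channel, read 4.74 and 5.18 against 7.79 and 8.78 (-3.32 ± 0.41, adjusted p 0.02243). Acsm3, an acyl-CoA synthetase, read 5.50 and 6.55 against 8.36 and 8.34 (-2.33 ± 0.33, adjusted p 0.03470). In each of these genes the 12-week levels were at or near those after PH, with 6.25 and 5.47 for Slc22a8, 5.04 and 5.94 for Aqp7 and 5.33 and 5.39 for Acsm3.

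Cyp2c11 and Sult1e1 stood higher at 4 weeks than on the other 6 arrays, whereas Hao2 was high in both young groups. Cyp2c11, the main P450 of the adult male rat liver, read 7.76 and 8.71 at 4 weeks and between 4.49 and 4.93 on the other 6 arrays (-3.39 ± 0.32, adjusted p 0.008961). Hao2, a peroxisomal 2-hydroxyacid oxidase, read 8.79 and 8.94 at 4 weeks, 8.03 and 6.52 at 2 weeks, 5.15 and 5.31 after PH and 5.06 and 5.48 at 12 weeks (-3.63 ± 0.44, adjusted p 0.02032). Sult1e1, the estrogen sulfotransferase, read 5.15 and 5.78 at 4 weeks and between 3.63 and 4.00 elsewhere (-1.73 ± 0.26, adjusted p 0.04860). The Sult1e1 values at 4 weeks are low signals, near the 25th percentile of genes, which was 5.35 and 5.29 on those arrays. The values of Cyp2c11 and Hao2 after PH were below or near this percentile as well, which was 5.31 and 5.25 on the PH arrays. The PH arrays did not stand apart from the 12-week arrays in Hao2 or Sult1e1, and the Sult1e1 probe set is listed with 2 gene identifiers, so its identity is uncertain.

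**Figure D3:**
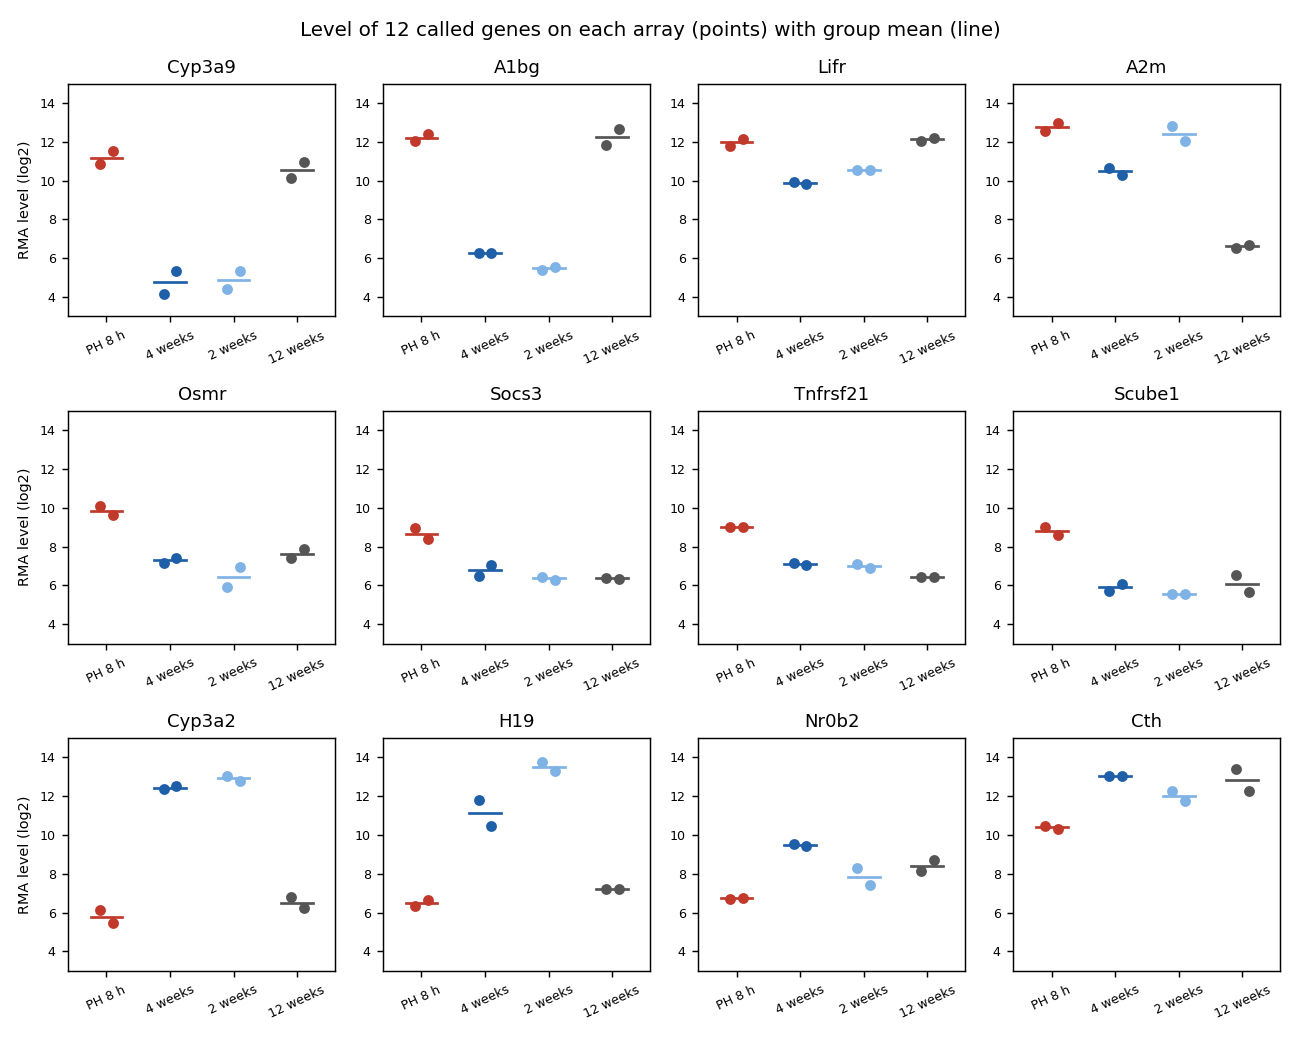
Log2 level on each array (points) in the PH, 4-week, 2-week and 12-week groups, with a line at each group mean, for 12 called genes, among them A2m, Lifr and Cth. Cyp3a9, A1bg and Cyp3a2 show PH and 12-week points side by side, while Osmr, Socs3 and Nr0b2 show PH points apart from all 6 others.

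In contrast to the genes above, 12 higher genes had both PH arrays above every other array. Dab1, an adaptor of Reelin receptors, read 9.18 and 8.23 after PH, 5.41 and 5.49 at 4 weeks and 7.63 and 7.41 at 12 weeks (3.25 ± 0.31, adjusted p 0.008961). Scube1, a secreted protein with EGF-like repeats, averaged 8.79 ± 0.30 (SD, n = 2) after PH, with a lower array of 8.58, against 5.72 and 6.08 (2.89 ± 0.32, adjusted p 0.01738) and did not exceed 6.54 at 2 or 12 weeks. Tnfrsf21, a death receptor of the TNF receptor family, read 9.03 and 8.99 against 7.16 and 7.05 (1.90 ± 0.21, adjusted p 0.01675) and lay between 6.43 and 7.11 at the other ages. For Scube1 and Tnfrsf21 the gap to all 6 other arrays was wider than the spread within any group, whereas Dab1 had intermediate 12-week levels.

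Gucy2c, the guanylate cyclase receptor of the gut peptide guanylin, read 7.71 and 8.73 against 5.57 and 5.42 (2.73 ± 0.34, adjusted p 0.02487). Spsb4, a SOCS box protein, read 8.98 and 8.58 against 6.43 and 6.29 (2.41 ± 0.31, adjusted p 0.02690). Galnt4, an enzyme that starts mucin-type sugar chains, read 9.35 and 9.64 against 7.34 and 7.12 (2.26 ± 0.30, adjusted p 0.02945). Kyat1, a kynurenine aminotransferase, differed by 1.93 ± 0.22 (adjusted p 0.01738), Tgm1, a transglutaminase, by 1.93 ± 0.29 (adjusted p 0.04854), and Wdr72 by 2.60 ± 0.30 (adjusted p 0.01738). Wdr72 started from 4.60 and 4.66 at 4 weeks, in the range where the receptor genes were also raised on PH replicate 1, and the part of that rise in its difference was not tested.

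The 14 lower genes with both PH arrays below all 6 others included Cth, Gstm7 and Gsta3. Cth, which makes cysteine from cystathionine, read 10.48 and 10.32 after PH against 13.04 and 13.02 at 4 weeks (-2.63 ± 0.36, adjusted p 0.03413), with no other array under 11.75. Gstm7 and Gsta3, both glutathione transferases, differed by -2.72 ± 0.31 (adjusted p 0.01738) and -2.58 ± 0.35 (adjusted p 0.03413). Gsta3 read 7.44 and 8.16 after PH and 10.28 and 10.47 at 4 weeks. Members of the glutathione transferase family share sequence, and signal may be split between them.

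Glyat, which conjugates acyl groups with glycine, fell by 2.40 on the log2 scale (adjusted p 0.03413) but did not belong to these 14, since its 2-week arrays, at 7.13 and 7.85, were lower than its PH arrays at 9.41 and 8.93. The 7 called genes that fell outside the rule for named genes, and are named here after their values were seen, were Prrg4 among the higher ones and Coq8a, Arhgef19, Hsd11b1, Notum, Abcd2 and the olfactory receptor Olr59 among the lower ones. Of these, Coq8a, a kinase-like protein needed for coenzyme Q, read 8.66 and 8.53 after PH with no other array under 10.55. Notum, an enzyme that inactivates Wnt proteins, read 6.44 and 6.11 after PH against 8.56 and 8.09 at 4 weeks.

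Receptors and an inhibitor of interleukin-6 type signalling were among the genes called higher after PH. In the list of 25 measured genes of this pathway 3 were called higher and 0 lower, against 0.117% and 0.193% of all genes. In this list 16 lay above 0, and the median difference was 0.31. Osmr, the oncostatin M receptor chain, read 10.07 and 9.65 after PH against 7.17 and 7.42 at 4 weeks (2.57 ± 0.36, adjusted p 0.03470), and no array of the other ages exceeded 7.87. Socs3, the feedback inhibitor that STAT3 induces, read 8.95 and 8.38 against 6.49 and 7.05 (1.89 ± 0.28, adjusted p 0.04408), with 6.28 to 6.43 at 2 and 12 weeks. Osmr and Socs3 were thus set apart from every other array.

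Lifr, the leukemia inhibitory factor receptor chain that pairs with the same signalling subunit, rose to 11.79 and 12.17 from 9.93 and 9.81 (2.11 ± 0.23, adjusted p 0.01675), but the 12-week arrays were at 12.05 and 12.22. Stat3 itself read 11.38 and 11.22 against 10.12 and 9.82 at 4 weeks and differed by 1.34 ± 0.23, which did not pass the test (adjusted p 0.07636). Over the 25 genes, 10 had both PH arrays above all 6 others, against 5.18% of all genes. The median of the list was 0.04 without PH replicate 1 and 0.12 without 4-week replicate 2, so single arrays moved it.

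Cish, a cytokine-inducible inhibitor of the same family as Socs3, is named here after its values were seen. It read 9.58 and 8.97 after PH and 7.67 and 7.13 at 4 weeks, above all 6 other arrays, and differed by 1.87 ± 0.38 (adjusted p 0.1226). Its promoter is shown because it holds 4 matches to the palindrome TTCNNNGAA, the form of site that STAT proteins bind, in the 250 bases before the start (chr8:116850719-116850968, plus strand, build GRCr8, RefSeq). Matches are in capitals.
Cish: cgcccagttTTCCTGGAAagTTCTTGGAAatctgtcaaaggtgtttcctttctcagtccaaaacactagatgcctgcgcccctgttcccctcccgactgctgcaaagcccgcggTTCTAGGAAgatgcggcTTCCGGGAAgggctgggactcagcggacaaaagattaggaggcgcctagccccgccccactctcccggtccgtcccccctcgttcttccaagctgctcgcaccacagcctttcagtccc
Windows from 250 bases before to 50 after the start were found for 22 of the 25 genes. Of these, 2 genes, Cish and Socs1, held the palindrome, a share near the 8.87% of all 33469 windows. The letters read the same on both strands. The match is a description of the sequence and not evidence of binding.

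Acute-phase proteins, which hepatocytes secrete after injury, had a median near 0 with some members set high after PH. Of 27 measured genes 16 lay above 0 and 11 below, the median was 0.03, and 1 was called. In 7 of them both PH arrays were above all 6 others, against 5.18% of all genes, and in 1 below, against 5.15%. The summed level was 17.98 and 17.92 after PH, 17.81 and 17.83 at 4 weeks and at most 17.83 at the other ages. The called gene was A2m, the protease inhibitor alpha-2-macroglobulin, a classical acute-phase protein of the rat. It read 12.57 and 12.99 after PH against 10.67 and 10.30 at 4 weeks (2.30 ± 0.31, adjusted p 0.03267), but 12.81 and 12.02 at 2 weeks and 6.53 and 6.70 at 12 weeks. The level after PH therefore overlapped that of 2-week liver.

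Hamp, which encodes the iron hormone hepcidin, is named after its values were seen. It read 12.31 and 12.05 after PH, only just above the 12-week arrays at 12.04 and 11.56, and 6.28 and 6.27 at 2 weeks. The 4-week arrays were far apart at 8.07 and 10.42, and the difference of 2.93 ± 0.62 did not pass the test (adjusted p 0.1342). Lcn2, also named after its values were seen, encodes the iron-siderophore binding protein lipocalin-2. It read 11.47 and 11.45 after PH but 10.05 and 11.85 at 4 weeks, so the groups overlapped (0.51 ± 0.62, adjusted p 0.8883).

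Immediate-early transcription factors, which are switched on within minutes to hours of a stimulus, showed a single called change, and it was downward. Egr1, a zinc finger factor of this class, read 7.26 and 7.05 after PH and 8.91 and 9.49 at 4 weeks (-2.05 ± 0.27, adjusted p 0.02786), and its 12-week arrays, at 7.08 and 6.82, overlapped the PH arrays. Fos read 5.84 and 6.14 after PH against a mean of 6.17 ± 0.24 (SD, n = 2) at 4 weeks (-0.18 ± 0.24, adjusted p 0.9040), and Jun 8.29 and 8.53 against 7.95 and 7.71 (0.58 ± 0.27, adjusted p 0.5379). Neither Fos nor Jun was thus separable from 4-week liver.

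Myc, a growth-promoting transcription factor, read 6.92 and 6.94 after PH against 7.82 and 7.98 at 4 weeks (-0.97 ± 0.23, adjusted p 0.1652). Atf3, a stress-induced factor, differed by 0.17 ± 0.31 (adjusted p 0.9418) and changed sign without 4-week replicate 2. In the whole list of 28 genes 18 lay above 0, 10 below, and the median was 0.11.

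Growth factors and their receptors gave 0 calls among 27 genes, of which 10 lay above 0, with a median of -0.10. Hgf, the hepatocyte growth factor, read 8.65 and 8.81 after PH and 8.48 and 8.62 at 4 weeks (0.18 ± 0.21, adjusted p 0.8764). Its receptor Met read 10.09 and 9.92 against 9.99 and 10.06 (-0.02 ± 0.22, adjusted p 0.9924), a value whose sign depended on the scaling. The largest member difference was that of Inhbe, an activin subunit made by hepatocytes, with 10.48 and 10.40 against 8.44 and 7.84 (2.30 ± 0.69, adjusted p 0.2860). One 12-week array reached 10.38 for Inhbe and the other 7.80.

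Genes of cell division mostly lay lower after PH than at 4 weeks. Of 24 measured mitosis genes 23 lay below 0, the median was -1.20, and 1 was called lower. In 23 of the 24 both PH arrays were below both 4-week arrays, against 22.5% of all genes. Ccnb1, the cyclin that drives entry into mitosis, read 4.92 and 5.10 after PH, 6.54 and 7.32 at 4 weeks, 8.19 and 8.01 at 2 weeks and 5.21 and 5.22 at 12 weeks (-1.92 ± 0.28, adjusted p 0.04334). Cdkn3, a phosphatase of cyclin-dependent kinases, stood outside the list and fell from 6.41 and 6.80 to 4.37 and 4.31 (-2.26 ± 0.34, adjusted p 0.04515).

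Cdk1, the kinase partner of cyclin B, read 4.86 and 4.75 after PH and 5.67 and 5.99 at 4 weeks (-1.02 ± 0.24, adjusted p 0.1617). The summed level of the 24 genes was 9.87 and 9.99 after PH, 10.96 and 11.17 at 4 weeks, 12.29 and 11.80 at 2 weeks and 9.91 and 10.28 at 12 weeks. The order of the groups was thus 2 weeks, then 4 weeks, then 12 weeks and PH, the last pair of which overlapped. After PH, Ccnb1, Cdk1 and Cdkn3 lay under the 25th percentile of genes, which was 5.31 and 5.25 on those arrays. RMA compresses changes of such low signals. The size of these falls and the overlap of PH with 12 weeks are therefore uncertain. The median of the list stayed between -1.30 and -0.98 over the alternatives.

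The promoters of Ccnb1 and Cdk1 are shown as examples of this group, since such genes often carry CCAAT boxes and the element TTTGAA, known as the cell cycle homology region. Capitals mark CCAAT (or its reverse ATTGG) in both and TTTGAA in Cdk1, over the 250 bases before the start. The Ccnb1 window is chr2:33655226-33655475, minus strand, and the Cdk1 window is chr20:19265043-19265292, plus strand (GRCr8, RefSeq).
Ccnb1: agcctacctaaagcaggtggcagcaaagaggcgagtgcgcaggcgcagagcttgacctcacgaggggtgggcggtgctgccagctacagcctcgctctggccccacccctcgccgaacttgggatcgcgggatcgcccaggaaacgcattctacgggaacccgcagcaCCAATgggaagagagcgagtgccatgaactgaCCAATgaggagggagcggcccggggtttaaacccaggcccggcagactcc
Cdk1: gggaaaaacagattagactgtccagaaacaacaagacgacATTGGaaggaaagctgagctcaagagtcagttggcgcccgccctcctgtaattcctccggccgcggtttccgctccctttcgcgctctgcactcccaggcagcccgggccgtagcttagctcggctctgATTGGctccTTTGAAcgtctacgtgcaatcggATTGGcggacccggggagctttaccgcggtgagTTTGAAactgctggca
On either strand CCAAT was found in 16 of the 20 mitosis genes with a window and in 37.5% of all 33469 windows, and TTTGAA in 14 of 20 against 18.3%. The forms TTTGAA and ATTGG can overlap by a base, as they do in the window of Cdca8, a mitosis gene named after its matches were seen.

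Lists of earlier steps of the cycle had medians closer to 0. DNA replication genes had 21 of 25 members below 0, a median of -0.36 and 0 calls, and Rrm2, a subunit of ribonucleotide reductase, had the largest difference (-1.65 ± 0.46, adjusted p 0.2491). Without PH replicate 1 the median of these genes was -0.17. G1 regulators had 12 of 16 below 0, a median of -0.16 and 0 calls, and the median was -0.05 without PH replicate 2. Ccnd1, the G1 cyclin D1, read 7.35 and 7.54 after PH, 8.01 and 7.95 at 4 weeks and 9.69 and 9.74 at 2 weeks (-0.54 ± 0.28, adjusted p 0.6059). Cdkn1a, the inhibitor p21, read 6.95 and 7.35 against 7.87 and 7.64 (-0.61 ± 0.50, adjusted p 0.7829).

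Markers of some other cell types lay lower beside the cell division genes. All 10 measured erythroid markers lay below 0, with a median of -1.23 and 1 call, Alas2, the first enzyme of heme synthesis in red cell precursors (6.79 and 6.27 after PH against 8.81 and 9.13, -2.43 ± 0.35, adjusted p 0.03937). Their summed level was 10.25 and 10.61 after PH, 12.14 and 12.56 at 4 weeks, 13.26 and 13.04 at 2 weeks and 10.88 and 11.86 at 12 weeks. Both PH arrays were the lowest of all. The part of these cells in the lower mitosis genes was not tested. In whole tissue, fewer cells of a type and less RNA per cell cannot be told apart.

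Stellate and fibroblast markers had 14 of 16 members below 0 and a median of -0.87. Pcolce, which enhances collagen maturation, was called, with 8.13 and 7.79 after PH against 10.27 and 10.11 (-2.23 ± 0.25, adjusted p 0.01727) and 7.87 and 7.69 at 12 weeks. The summed level was 12.24 and 12.22 after PH but 13.82 and 12.75 at 4 weeks, and the list median was -1.56 without 4-week replicate 2 and -0.30 without 4-week replicate 1. Lymphocyte markers had 13 of 16 members below 0 and a median of -0.29, and macrophage markers 10 of 14 and -0.14. Neutrophil, endothelial, pancreas and adipocyte markers had medians of 0.00, 0.04, -0.02 and -0.11, and cholangiocyte markers -0.29, with 0 calls in each. The 8 cholangiocyte markers had summed levels far apart on the 4-week arrays, at 11.97 on replicate 1 and 9.15 on replicate 2. Their median was -1.99 when only genes at or above the median level were kept.

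Genes that build ribosomes lay above 0 in 27 of 27 cases, with differences from 0.00 to 1.28 and a median of 0.62, but 0 were called. In 19 of them both PH arrays were above both 4-week arrays, against 21.6% of all genes. Mybbp1a, a nucleolar protein, read 10.35 and 10.51 after PH and 9.50 and 8.81 at 4 weeks (1.28 ± 0.33, adjusted p 0.2198). Bop1, needed for maturation of the large ribosomal subunit, read 8.34 and 8.83 against 7.39 and 7.45 (1.17 ± 0.35, adjusted p 0.2798). The median level of the list was 8.34 and 8.76 after PH, 7.67 and 7.55 at 4 weeks, 8.00 and 8.54 at 2 weeks and 7.29 and 8.33 at 12 weeks, so both 4-week arrays were below both PH arrays, 12-week replicate 1 was the lowest of all, and the 2-week arrays overlapped the PH pair.

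Folding factors of the endoplasmic reticulum lay above 0 in 17 of 20 cases, with a median of 0.61 and 0 calls. In 11 of the 20 both PH arrays were above all 6 others, against 5.18% of all genes. Hyou1, a chaperone of this compartment, read 11.56 and 11.03 after PH against 9.91 and 9.46 (1.62 ± 0.36, adjusted p 0.1424), and Creld2, a stress-induced luminal protein, 10.32 and 10.36 against 8.41 and 9.06 (1.60 ± 0.39, adjusted p 0.1804). Hspa5, the master chaperone BiP, read 13.02 and 13.10 against 12.20 and 11.67 (1.12 ± 0.35, adjusted p 0.3103). The median level of the list was 11.29 and 11.06 after PH and between 10.17 and 10.67 on the other 6 arrays, and the median difference was 0.29 without 4-week replicate 1.

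Heat shock proteins, the chaperones of the cytosol and mitochondria, lay above 0 in 15 of 17 cases, with a median of 0.67 and 0 calls. Hsph1, a chaperone of the HSP110 group, read 9.87 and 10.21 after PH against 8.04 and 8.00 at 4 weeks (2.02 ± 0.54, adjusted p 0.2281). Hsp90aa1, the inducible HSP90, read 12.09 and 12.04 against 10.62 and 10.18 (1.66 ± 0.37, adjusted p 0.1403). In 14 of the 17 both PH arrays were above both 4-week arrays, against 21.6% of all genes, and in 2 they were above all 6 others, against 5.18%. On 12-week replicate 2 the levels were high as well, at 10.27 for Hsph1 and 12.00 for Hsp90aa1 against 8.46 and 10.83 on 12-week replicate 1.

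The promoters of Hspa5, Creld2 and Hsph1 are shown because most chaperone genes lay above 0. Capitals mark the endoplasmic reticulum stress response element, CCAAT and CCACG with any 9 bases between, in Hspa5 and, on the opposite strand, in Creld2, and the heat shock element, GAA, TTC and GAA with any 2 bases between each, on the opposite strand in Hsph1. The windows of 250 bases before the start are chr3:38452766-38453015, plus strand; chr7:121789134-121789383, plus strand; and chr12:10427118-10427367, plus strand (GRCr8, RefSeq).
Hspa5: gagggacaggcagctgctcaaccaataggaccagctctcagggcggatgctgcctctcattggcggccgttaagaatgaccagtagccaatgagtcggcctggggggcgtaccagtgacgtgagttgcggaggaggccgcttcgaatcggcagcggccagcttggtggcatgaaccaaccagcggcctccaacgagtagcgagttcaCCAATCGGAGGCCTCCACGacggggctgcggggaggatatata
Creld2: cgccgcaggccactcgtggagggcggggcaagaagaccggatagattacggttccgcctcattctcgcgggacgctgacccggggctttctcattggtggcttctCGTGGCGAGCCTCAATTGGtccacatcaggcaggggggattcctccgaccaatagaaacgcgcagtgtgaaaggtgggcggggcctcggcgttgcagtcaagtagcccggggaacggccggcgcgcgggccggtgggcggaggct
Hsph1: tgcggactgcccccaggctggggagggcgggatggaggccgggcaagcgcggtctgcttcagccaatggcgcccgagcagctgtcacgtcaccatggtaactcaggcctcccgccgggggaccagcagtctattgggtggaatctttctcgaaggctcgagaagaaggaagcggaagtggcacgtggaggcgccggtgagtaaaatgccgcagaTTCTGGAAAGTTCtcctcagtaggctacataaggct
On either strand the stress response element, which contains a CCAAT box, was found in 7 of the 16 folding genes with a window and in 0.0657% of all windows. The heat shock element was found in 6 of the 14 heat shock genes with a window and in 0.798% of all windows. These elements are properties of the genes and say nothing of which factor was active.

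**Figure D4:**
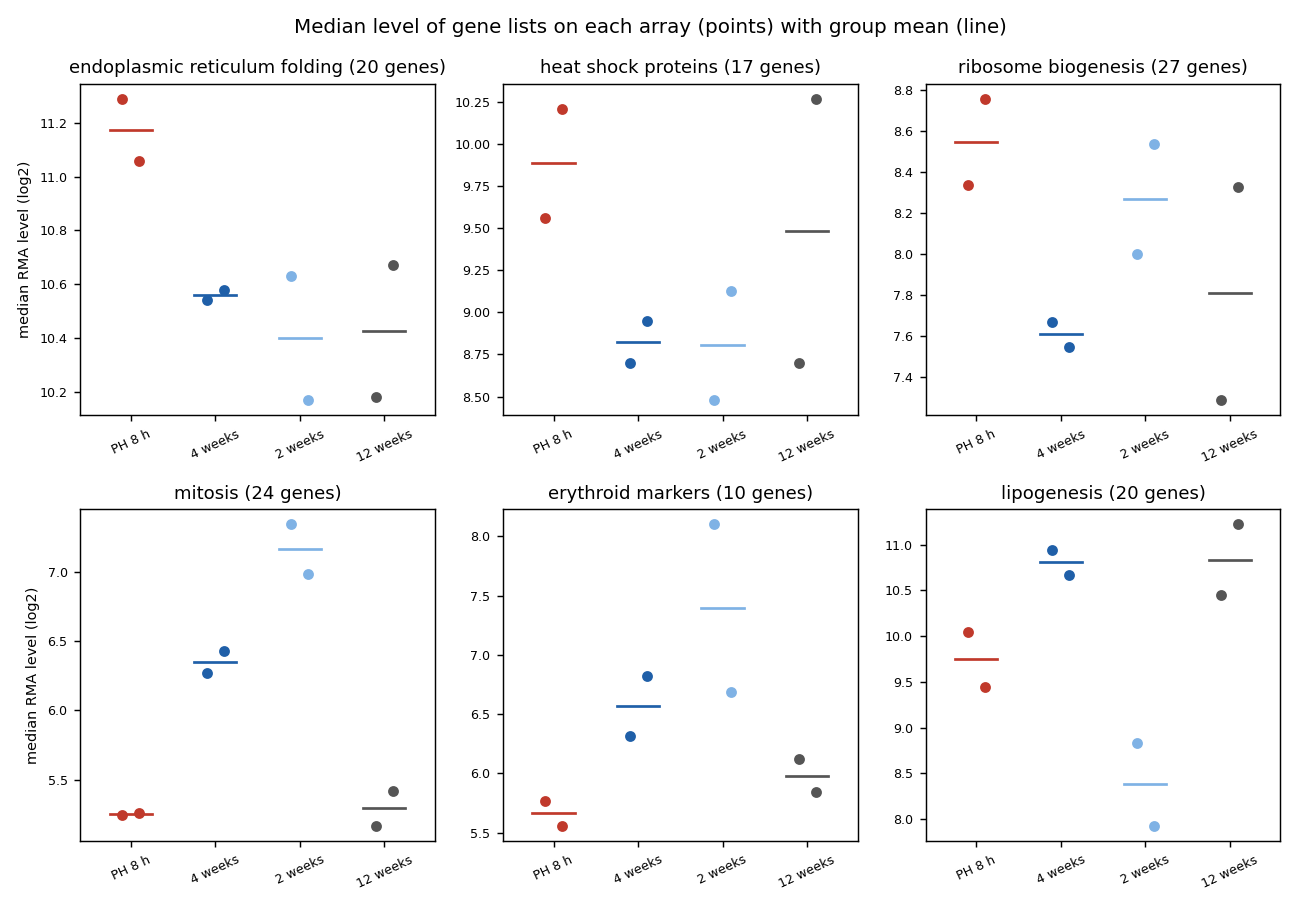
Median log2 level of the members of 6 gene lists (endoplasmic reticulum folding, heat shock proteins, ribosome biogenesis, mitosis, erythroid markers and lipogenesis) on each of the 8 arrays (points), grouped as PH, 4, 2 and 12 weeks, with a line at each group mean. Folding genes reach 11.29 and 11.06 on the PH arrays, above the other 6, and mitosis genes read 7.34 and 6.98 at 2 weeks and 5.25 and 5.26 after PH.

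The amino acid stress response, which raises amino acid synthesis and tRNA charging through ATF4, was divided. Of 25 genes 14 lay above 0, the median was 0.11, and the single call was the lower Cth described above. Wars1 and Asns, a tRNA synthetase and asparagine synthetase and both named after their values were seen, differed by 1.40 ± 0.23 (adjusted p 0.06757) and 1.06 ± 0.25 (adjusted p 0.1702). Genes of the NRF2, heme and metal response had 9 of 22 members above 0 and a median of -0.08, with Gsta3 as the call. Hmox1, heme oxygenase, read 9.97 and 9.98 after PH against 8.75 and 9.71 (0.75 ± 0.31, adjusted p 0.4638).

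Bile acid genes mostly lay lower after PH. Of 21 measured genes 17 lay below 0, and the median was -0.58. Of the 21, 3 were called lower and 0 higher, against 0.193% and 0.117% of all genes. Nr0b2, a nuclear receptor that represses bile acid synthesis and is induced by bile acids, read 6.72 and 6.73 after PH and 9.53 and 9.45 at 4 weeks (-2.77 ± 0.33, adjusted p 0.01951), with no other array under 7.40. Akr1d1, a reductase that shapes the bile acid ring, read 11.22 and 11.19 against 13.29 and 13.48 (-2.19 ± 0.32, adjusted p 0.04334). Abcc3, an exporter towards the blood, read 7.47 and 7.57 against 9.53 and 9.09 (-1.78 ± 0.24, adjusted p 0.02945). All 3 had both PH arrays below all 6 others, as did 7 of the 21 genes in all, against 5.15% of all genes.

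Cyp7a1, which limits the rate of bile acid synthesis, read 12.19 and 11.56 after PH and 11.56 and 12.82 at 4 weeks, so the groups overlapped (-0.32 ± 0.52, adjusted p 0.9330). Abcg5 and Abcg8, which together export sterols into bile, are named after their values were seen. They differed by -2.73 ± 0.76 (adjusted p 0.2447) and -2.96 ± 0.73 (adjusted p 0.1850). Their 12-week arrays were far apart, at 7.17 and 9.94 for Abcg5 and 5.83 and 8.34 for Abcg8.

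Cytochrome P450 and phase II enzymes mostly lay lower. Of 38 genes 27 lay below 0, and the median was -0.51. Of the 38, 4 were called lower and 1 higher, against 0.193% and 0.117% of all genes. The calls were Cyp3a2, Cyp2c11, Sult1e1 and Fmo1 against Cyp3a9. Fmo1, a flavin monooxygenase, read 9.84 and 9.71 after PH against 11.80 and 11.29 at 4 weeks (-1.77 ± 0.25, adjusted p 0.03413), and 10.08 was the lowest value at another age. Only Cyp3a2 and Fmo1 among these 5 lay below all 6 other arrays. Over the 38 genes 8 did, against 5.15% of all genes.

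Lipid synthesis genes lay lower without reaching the test. Lipogenesis had 17 of 20 members below 0, a median of -1.10 and 0 calls. Pnpla3, a lipid droplet protein regulated with lipogenesis, read 5.62 and 5.73 after PH and 8.33 and 8.21 at 4 weeks (-2.60 ± 0.42, adjusted p 0.06554), and Me1, a source of NADPH, 8.83 and 8.13 against 10.24 and 10.48 (-1.88 ± 0.35, adjusted p 0.09548). Fasn, fatty acid synthase, read 10.16 and 9.17 against 10.27 and 10.25 (-0.59 ± 0.64, adjusted p 0.8633). The median level of the list was 10.05 and 9.45 after PH, 10.94 and 10.67 at 4 weeks, 10.45 and 11.22 at 12 weeks and 8.83 and 7.93 at 2 weeks, so 2-week liver was lower than PH liver. Cholesterol synthesis had 17 of 18 members below 0, a median of -0.60 and 0 calls. In 0 of the 18 were both PH arrays below all 6 others, against 5.15% of all genes. With 18 genes these shares cannot be told apart.

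Fatty acid oxidation and ketogenesis had 18 of 26 members above 0, a median of 0.34 and 0 calls, and the median was 0.14 without PH replicate 2 and 0.16 without 4-week replicate 2. Cpt1a, which admits fatty acids to mitochondria, read 12.21 and 11.70 after PH against 11.02 and 10.23 (1.33 ± 0.41, adjusted p 0.3047). Bdh1, an enzyme of ketone bodies, had the largest member difference and lay lower (-1.70 ± 0.38, adjusted p 0.1417). Glucose genes had 17 of 22 members below 0, a median of -0.35 and 0 calls, and the median was -0.13 without 4-week replicate 1 and -0.64 without 4-week replicate 2. Pck1, a key step of gluconeogenesis, read 13.39 and 13.03 against 13.43 and 12.56 (0.22 ± 0.52, adjusted p 0.9629), and G6pc1, which releases free glucose, differed by -1.69 ± 0.54 (adjusted p 0.3138).

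The urea cycle and amino acid breakdown were evenly split, with 16 of 32 members above 0, a median of 0.01 and 0 calls. Hal, which degrades histidine, read 11.69 and 11.83 after PH against 9.76 and 9.75 (2.01 ± 0.37, adjusted p 0.09417), while Sds, which degrades serine, differed by -2.26 ± 0.63 (adjusted p 0.2447). Hal was also high at 12 weeks, at 11.82 and 11.71.

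Fetal liver and imprinted growth genes had 12 of 15 members below 0, a median of -0.28 (-0.45 without 4-week replicate 2) and 1 call, H19. Afp, the fetal plasma protein alpha-fetoprotein, was already low at 4 weeks. It read 13.70 and 13.44 at 2 weeks, 7.60 and 7.13 at 4 weeks and 6.49 and 6.41 after PH (-0.91 ± 0.33, adjusted p 0.3803). Igf2, the fetal insulin-like growth factor, read 12.27 and 10.92 at 2 weeks but 6.20 and 6.22 at 4 weeks and a mean of 6.01 ± 0.02 (SD, n = 2) after PH (-0.20 ± 0.39, adjusted p 0.9455). The operated liver thus had neither transcript above the 4-week level.

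The growth hormone and IGF axis had 10 of 18 members above 0, a median of 0.13 and 1 call, A1bg. Igfbp1, an IGF binding protein that responds to insulin and injury, read 9.93 and 11.25 after PH against 12.34 and 12.75 at 4 weeks (-1.96 ± 0.99, adjusted p 0.5837), with 11.47 and 7.95 at 12 weeks. Its spread within groups was too wide for a call.

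Clock genes had 12 of 17 members above 0, a median of 0.22 and 0 calls, and the median was 0.08 without PH replicate 1, 0.39 without PH replicate 2 and 0.64 without 4-week replicate 1. Bmal1, a core activator of the clock, read 5.40 and 5.89 after PH, below all 6 others, against 7.65 and 7.25 at 4 weeks (-1.81 ± 0.49, adjusted p 0.2337). Its relative Npas2 differed by -2.15 ± 0.93 (adjusted p 0.4880), and Cry1, a repressor in the same loop, by 1.30 ± 0.29 (adjusted p 0.1399). Per1, another repressor, read 8.21 and 7.22 against 8.44 and 7.41 (-0.21 ± 0.51, adjusted p 0.9628). The hour of collection is not given and cannot be told apart from the groups.

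Lists of secreted plasma proteins and of liver regulators had medians near 0, with 0 calls in each. Complement and coagulation had 12 of 25 members above 0 and a median of -0.03, and apolipoproteins and lipases 11 of 24 and -0.01. Lpl, lipoprotein lipase, had the largest difference of the latter, with 6.24 and 6.67 after PH against 8.56 and 7.99 (-1.82 ± 0.31, adjusted p 0.07354). Liver transcription factors had 10 of 19 members above 0 and a median of 0.04. Among them Hnf4a, a master regulator of hepatocyte genes, read 11.82 and 11.21 against 11.57 and 10.47 (0.49 ± 0.37, adjusted p 0.7574), and Nr1i3, the xenobiotic receptor CAR, 7.12 and 7.13 against 9.65 and 8.69 (-2.05 ± 0.35, adjusted p 0.07397).

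Interferon response and MHC genes had 15 of 24 members above 0 and a median of 0.19, with 0 calls, and the median was 0.41 without PH replicate 1 and 0.01 without PH replicate 2. RT1-Bb, a class II antigen-presenting chain, read 9.26 and 8.92 after PH against 6.74 and 7.14 (2.15 ± 0.51, adjusted p 0.1730), and 9.25 and 7.41 at 12 weeks. Mx2, an antiviral protein, read 10.64 and 10.63 against 8.56 and 9.41 (1.65 ± 0.48, adjusted p 0.2681). Both overlapped the 12-week range.

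**Figure D5:**
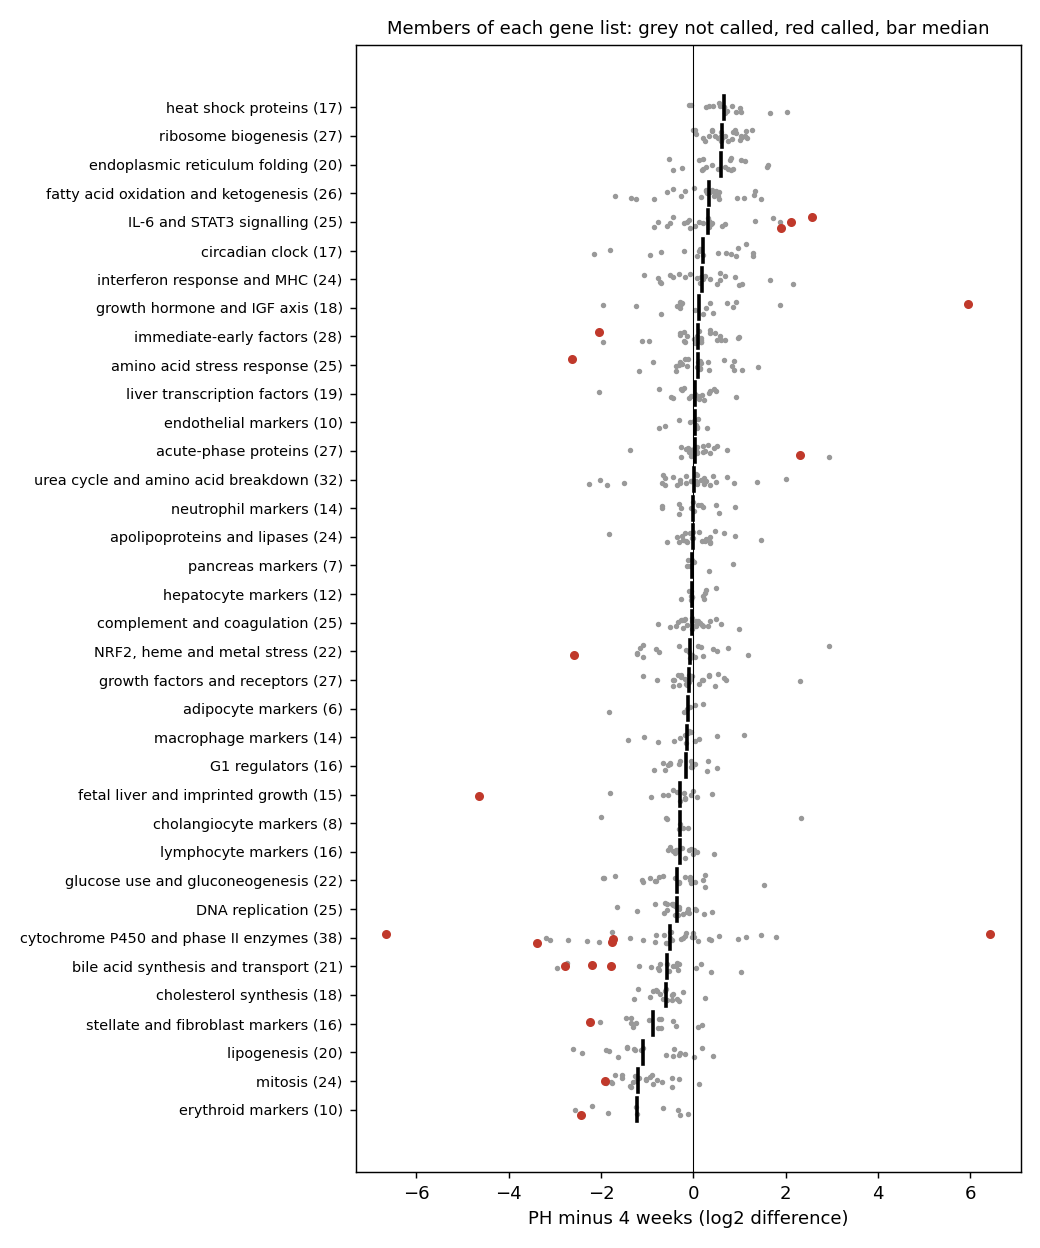
Log2 difference between PH and 4 weeks for every measured member of each gene list (points, called members coloured) with the list median as a bar and a thin line at 0. Mitosis and lipogenesis lie to the lower side with medians of -1.20 and -1.10, and ribosome biogenesis, heat shock and endoplasmic reticulum folding to the higher side with 0.62, 0.67 and 0.61.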

How the data were processed

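The 8 liver RNA samples, 2 in each of 4 groups, were hybridised to Affymetrix Rat Gene ST 1.0 arrays. Per the submitters' processing notes, the authors used Affymetrix Expression Console with RMA to make the deposited log2 values. The sources used here do not give its version or any filter. RMA compresses changes of low signals, no detection calls or batches were used, and the number of arrays limits the precision. Of 29214 probe sets 15316 had 1 gene symbol, 317 several, and 13581 were unnamed here. Each of 14511 genes was represented by the probe set with the highest mean over the 8 arrays.

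A model of the 4 groups was fitted to all 8 arrays in limma 3.58.1 (R 4.3.3), and the contrast PH minus 4 weeks was tested two-sided, with 4 residual and 4.27 prior degrees of freedom. SE is the moderated standard error. With 2 arrays against 2, an exact permutation test of a single gene cannot go below 0.333. The script was tested on simulated data.

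The comparison, its members and the 36 gene lists (813 entries, 715 measured) were chosen with earlier results of these data known. Lists were described by counts and medians, with no test. A summed level is the log2 of the summed linear values of a list. Named were the 15 higher and 15 lower called genes with the largest difference, the called members of each pathway or marker list or, in a pathway list without a call, members among its 4 largest differences, and a set of genes that define the lists. Other named genes are said to be so. Promoter windows came from RefSeq (GRCr8), matched by gene identifier. A list gene counted as a match if any of its windows matched, while the share over all windows counts each window singly. The alternatives covered the arrays in the fit, the replicate number as a block, scaling, low values, probe sets, eBayes options, the threshold and a covariate for the receptor-gene level.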

Additional observations from a re-analysis of the deposited data

How the results depend on the processing

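The 45 calls became 109 with only the 4 arrays of both groups, 6 to 132 over the fits that each left out 1 array, 132 without both 12-week arrays, 68 with median centring, 90 with the 75th percentile set equal, 22 over all probe sets, 8 at an adjusted p under 0.01 and 232 with a covariate for the receptor-gene level. With that covariate 62.9% of calls were higher, over all probe sets 54.5%, and in the reported fit 37.8%. Leaving out either 2-week array, an alternative chosen after seeing the data like that for single 12-week arrays, gave 31. Where 1 array of a group remained, it was taken to vary like the other groups. Other settings gave 40 to 49. Median centring moved the all-gene median from -0.01 to 0.11, and differences there are higher by that shift. Titles number the arrays 1 and 2 in each group, and deviations of same-numbered PH and 4-week arrays correlated at 0.353 over genes. With only 2 pairs this does not establish a pairing, and the fit with the replicate block gave 143 calls, 45 of them among the reported ones. Of 125 named genes 7, none of them called, changed sign. Pck1 was -0.40 with the covariate, and median centring put Met at 0.10 and Alb at 0.07. Leaving out 1 array gave ranges of -0.06 to 1.05 for Hnf4a, -0.94 to 0.31 for Cyp7a1, -0.22 to 0.65 for Pck1, -0.11 to 0.07 for Met, -0.29 to 0.63 for Atf3 and -0.73 to 0.30 for Per1. The medians of 16 lists changed sign under some setting, among them acute-phase, immediate-early, growth factor, amino acid stress and urea cycle genes. The cause of these changes was not tested.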

Other observations

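When all 29214 probe sets were fitted, 5 of the 22 calls had no single gene symbol. Probe set 10876147 read 11.12 and 11.10 after PH, 8.14 and 8.26 at 4 weeks and between 9.03 and 9.42 at the other ages (2.91 ± 0.22, adjusted p 0.009696). Probe sets 10896803, 10909006 and 10909009 differed by 5.43, 5.89 and 5.34 and were also high at 12 weeks, as Cyp3a9, A1bg and Rup2 were. Probe set 10798046 differed by -1.92.

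Some genes with a wide gap between the groups missed the threshold, and are named after their values were seen. Ces2e, a carboxylesterase of a family with similar sequences, read 6.49 and 6.93 after PH against 11.76 and 11.57 at 4 weeks (-4.96 ± 0.88, adjusted p 0.08071), while its 12-week arrays were 8.28 and 11.71. Sema3c, a secreted semaphorin, read 8.92 and 8.51 against 5.79 and 5.32 (3.16 ± 0.53, adjusted p 0.06757), with 5.91 and 7.78 at 12 weeks. Car3, a carbonic anhydrase, read 8.23 and 8.54 against 11.92 and 11.57 (-3.36 ± 0.58, adjusted p 0.07636). For Ces2e and Sema3c the gap between the 12-week arrays was large, and these arrays enter the shared spread.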
